A study of Mus musculus with 68 samples.

Results

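The liver of mice given a small intravenous injection of saline was compared with the liver of mice given none, across all genes of the table. The study injected Egf, a growth factor, and collected heart, lung, kidney and liver, to find how the response differs among organs. Its vehicle mice and its untreated mice are both controls, and the difference between them is described here. The comparison rests on 6 of the 68 libraries of the series, chosen by organ, treatment and time in the sample labels. Polyadenylated RNA was sequenced.

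All mice were wild-type C57BL/6J females, 10 weeks old. The vehicle group at 2 h holds 3 mice that received 50 to 60 µL of phosphate-buffered saline (PBS) into the retro-orbital sinus under isoflurane, a volatile anaesthetic, and whose organs were frozen 2 h later. The untreated group holds 3 mice with no injection, labelled 0 h. A vehicle group at 6 h with 3 libraries, and the matching 18 libraries of heart, lung and kidney, serve as comparisons. The animals were fed freely on a light/dark cycle, and each harvest took less than 4 min. The labels give neither the time of day of a harvest nor whether the untreated mice were anaesthetised. The injection, the saline, the anaesthetic, handling and the time of day therefore cannot be told apart.

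The liver answers quickly to a disturbance of the whole animal. Hepatocytes take up insulin, glucagon, glucocorticoids, growth hormone and cytokines from the blood, and each of these sets off its own group of genes. Glucocorticoids, released from the adrenal gland under stress, raise gene groups that include metallothioneins and the cyclin-dependent kinase inhibitor p21. Cytokine and growth hormone receptors act through Stat factors and raise their own inhibitors of the Socs family. A load of unfolded protein in the endoplasmic reticulum raises chaperones and proteins of the degradation machinery. A large share of liver genes also follows the time of day through the circadian clock and through feeding.

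The 6 libraries held 14826465 to 16029833 counted reads in vehicle livers and 17333162 to 19165882 in untreated livers. These totals did not overlap (exact two-sided permutation test, p = 0.1, the smallest that 3 against 3 libraries allow). Levels are given in CPM, which are read counts brought to one library size after scaling. Vehicle replicate 2 stood apart in one respect, since Rn18s-rs5, an entry for ribosomal RNA, took 0.0126% of its reads against 1.51% to 3.47% in the other 16 liver libraries. Sums of marker levels are per library total, without that scaling, unless given as scaled. The summed level of 8 hepatocyte markers, among them Alb, Apoa1 and Ttr, was 115600 to 124800 CPM in vehicle livers and 129900 to 144500 CPM in untreated livers, as a liver label requires. The scaled sums overlapped, at 115400 to 134500 CPM in vehicle livers and 124600 to 142000 CPM in untreated livers (exact permutation p = 0.6), and 4 of the 8 markers had a change above 0 and 4 below. Endothelial markers summed to 158.7 to 226.3 CPM in vehicle livers and 238.9 to 293.9 CPM in untreated livers. Markers of stellate cells and fibroblasts summed to 139.9 to 174.1 CPM in vehicle livers and 213.5 to 328.6 CPM in untreated livers. The endothelial and the stellate cell sums did not overlap between the groups on either scale (exact permutation p = 0.1 for each), with scaled endothelial sums of up to 240.6 CPM in vehicle livers and from 241.5 CPM in untreated livers. All 8 markers of each of the 3 lists were detected. Kupffer cell and macrophage markers ran from 267.4 to 298.4 CPM in vehicle livers and from 273.1 to 513.4 CPM in untreated livers. Neutrophil markers stayed between 1.88 and 2.99 CPM in vehicle livers and between 1.30 and 2.29 CPM in untreated livers, with Ly6g at 0 in all 6 libraries. The part of these shifts in the results was not tested. In bulk tissue, fewer cells of a type and less RNA per cell cannot be told apart.

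Few genes were called at 2 h, and they were spread over many functions. Of 13592 genes tested in liver, 21 were called at an adjusted p under 0.05, that is 0.155%, with 10 higher (0.0736%) and 11 lower (0.0809%) in vehicle livers. Lpin1, an enzyme of triglyceride synthesis, and St3gal5, an enzyme of ganglioside synthesis, carried the smallest adjusted p. The other 8 rises were Mt2, Cdkn1a, Cish, Retreg1, Herpud1, Fam107b, Shld2 and Mknk2. The falls were Tgm1, Nod1, Klhdc7a, Plekhg6, Llgl2, Fgfr3, Acvr1b, Trim14, Trim26, Dlg3 and Ttc7. The test was edgeR's quasi-likelihood test with Benjamini-Hochberg adjustment, fitted on all 17 liver libraries, and log2 changes are vehicle over untreated with the standard error (SE). Without adjustment, 2256 genes had p under 0.05, of which 1068 were higher and 1188 lower. In all 21 called genes the 3 vehicle libraries lay apart from the 3 untreated ones, as they also did in 23.9% of all genes tested. Dlg3 was the last gene called, at an adjusted p of 0.0475, and Kank2 the first that was not, at 0.0581.

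The number of calls rested on single libraries, controls included. When 1 vehicle library was left out, 11 genes (omitting replicate 1), 4 genes (replicate 2) or 2 genes (replicate 3) were called. When 1 untreated library was left out, the number was 1 (omitting replicate 1), 18 (replicate 2) or 3 (replicate 3). Without vehicle replicate 2, the library low in Rn18s-rs5, the 4 calls were all rises. Lpin1 was called in each of these 6 fits, and St3gal5 in 5 of them, missing only without untreated replicate 1 (adjusted p = 0.0597). All the other called genes were lost in at least 3 of the 6 fits. Retreg1, Shld2, Mknk2, Llgl2 and Dlg3 were called in 0 of the 6 fits. Cish, Fam107b, Plekhg6, Acvr1b, Trim26 and Ttc7 were called in only 1 of the 6. The direction of all 21 genes was the same in every one.

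**Figure D1:**
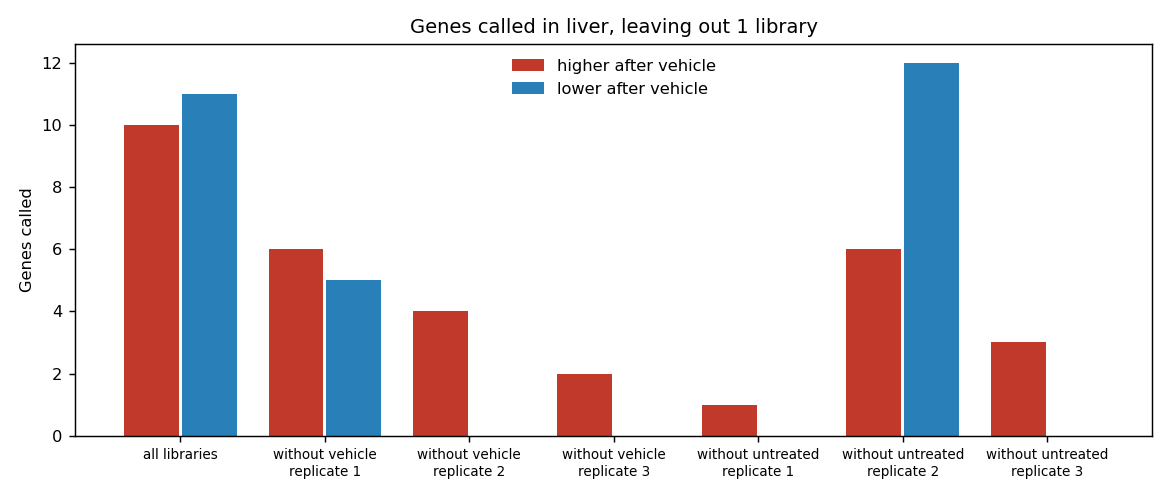
Genes called in liver (vertical axis, number of genes) with all libraries and with 1 library left out, as bars for genes higher and lower after vehicle. The count falls to 4, 2, 1 and 3 without vehicle replicate 2, vehicle replicate 3, untreated replicate 1 and untreated replicate 3, while 18 genes are called without untreated replicate 2.

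Lpin1, the phosphatidate phosphatase that makes diacylglycerol for triglyceride synthesis, showed the most stable rise. It lies on chromosome 12 from 16585670 to 16696967 (ENSMUSG00000020593, mm39, as are all gene coordinates). Its level was 300.8, 150.8 and 320.3 CPM in the 3 vehicle libraries and 32.1, 52.5 and 47.9 CPM in the 3 untreated libraries. Vehicle replicate 2 was lower than the other vehicle libraries and still higher than every untreated library. The change was 2.54 ± 0.30 (SE) with adjusted p = 0.00131, a 5.83-fold rise. The related Lpin2 was not called, at 211.5, 113.9 and 157.7 CPM in vehicle livers and 80.3, 67.5 and 116.9 CPM in untreated livers (log2 change 0.87 ± 0.26, adjusted p = 0.197). Of 19 tested genes of fatty acid and triglyceride synthesis, 1 rose and none fell, with a median log2 change of 0.26 against -0.04 over all genes tested. Without vehicle replicate 1 the median of this list was 0.06. Srebf1, the master transcription factor of that pathway, was 221.8, 117.0 and 204.1 CPM in vehicle livers and 391.0, 365.3 and 356.6 CPM in untreated livers. Those groups did not overlap, but the change of -1.04 ± 0.24 was not called (adjusted p = 0.123).

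St3gal5, the sialyltransferase that makes ganglioside GM3, lies on chromosome 6 from 72074576 to 72131555. It had 258.2, 242.2 and 315.0 CPM in vehicle livers and 100.3, 101.0 and 109.6 CPM in untreated livers. Both groups were tight and far apart. The change was 1.39 ± 0.19 with adjusted p = 0.00359, a 2.62-fold rise.

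Cdkn1a and Mt2 were also among the rises. Cdkn1a encodes p21, an inhibitor of cyclin-dependent kinases, and lies on chromosome 17 from 29309950 to 29319701. It had 17.9, 26.5 and 42.2 CPM in vehicle livers and 3.99, 6.36 and 3.34 CPM in untreated livers, a change of 2.67 ± 0.41 (adjusted p = 0.0157). The lowest vehicle library was above the highest untreated one, and vehicle replicate 1 was the lowest of its group. Mt2, a metallothionein that binds zinc and other metals, lies on chromosome 8 from 94899292 to 94900196. It was 2.87, 10.0 and 6.00 CPM in vehicle livers and 0.682, 0.759 and 0.589 CPM in untreated livers, with a change of 3.22 ± 0.52 (adjusted p = 0.0157). These are low levels, since they stand for 40, 161 and 86 reads in vehicle livers and 13, 13 and 12 reads in untreated livers. Its neighbour Mt1 had 123.5, 512.4 and 276.1 CPM in vehicle livers and 75.6, 159.4 and 105.8 CPM in untreated livers. For Mt1 the lowest vehicle library fell inside the untreated range, and the change of 1.42 ± 0.47 was not called (adjusted p = 0.227).

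The promoters of both metallothionein genes are shown because metal response elements are the best known control sites of this gene family. Sequences are from RefSeq on GRCm38.p6, with 250 bases before and 50 after the start of transcription, read 5′ to 3′ on the plus strand, at chr8:94172368-94172667 for Mt2 and chr8:94178839-94179138 for Mt1. Capitals mark the letters TGCNCNC, a looser form of the core of the metal response element, on either strand.
Mt2: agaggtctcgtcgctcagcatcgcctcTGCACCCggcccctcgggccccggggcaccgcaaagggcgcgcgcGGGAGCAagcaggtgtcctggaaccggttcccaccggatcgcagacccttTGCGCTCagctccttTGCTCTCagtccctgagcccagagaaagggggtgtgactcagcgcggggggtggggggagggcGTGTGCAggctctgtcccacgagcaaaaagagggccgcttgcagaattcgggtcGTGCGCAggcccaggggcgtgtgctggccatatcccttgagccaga
Mt1: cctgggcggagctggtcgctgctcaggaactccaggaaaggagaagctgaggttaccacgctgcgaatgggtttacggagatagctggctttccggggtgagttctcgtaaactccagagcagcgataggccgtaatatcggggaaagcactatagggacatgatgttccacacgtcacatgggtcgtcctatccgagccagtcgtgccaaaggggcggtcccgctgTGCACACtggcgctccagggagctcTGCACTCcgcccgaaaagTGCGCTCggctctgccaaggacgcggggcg
The Mt2 window held 6 matches and the Mt1 window 3, and no matches overlapped in either. Promoter windows were found for 18 of the 21 called genes. Of those besides Mt2, Retreg1 had a window with 5 matches and Shld2 a window with 4. Of 32851 mouse promoter windows of this length, 51.0% held at least 1 match, 7.10% at least 3 and 0.225% at least 6. In all, 6 motifs were searched. Those shown neither here nor below were the E-box CACGTG, in 7.15% of all windows, and the cAMP response element TGACGTCA, in 1.79%. Among the called genes, the E-box was in windows of Retreg1 and Acvr1b. The cAMP response element was in windows of Retreg1 and Trim26. A match is a description of the letters and not a bound site.

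Mt2 and Cdkn1a were the 2 genes called among 25 tested members of a list of glucocorticoid-induced genes, and both rose. The median change of that list was 0.37, with 19 members above 0 and 6 below. The members that respond to glucocorticoids in most tissues were among those not called. Fkbp5, a chaperone of the glucocorticoid receptor, had 49.4, 36.2 and 44 CPM in vehicle livers and 38, 29.8 and 40.6 CPM in untreated livers (log2 change 0.26 ± 0.24, adjusted p = 0.578), with overlapping groups. Tsc22d3, which encodes the glucocorticoid-induced leucine zipper protein, had a log2 change of 0.37 ± 0.25 (adjusted p = 0.447). Zbtb16, a zinc finger repressor, had 9.40, 8.73 and 9.77 CPM in vehicle livers and 1.78, 1.87 and 6.63 CPM in untreated livers. Those groups lay apart, with untreated replicate 3 close to the vehicle level, and the change of 1.43 ± 0.43 was not called (adjusted p = 0.208). Leaving out 1 library moved the list's count of calls between 0 and 2 and its median between 0.21 and 0.54. Uncalled list members are named here and below because their p was small or their role well known, a choice made with their values in view.

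The other rises included a pair of genes for quality control of the endoplasmic reticulum, Herpud1 and Retreg1. Herpud1, a membrane protein that helps to degrade misfolded proteins of the endoplasmic reticulum, lies on chromosome 8 from 95113066 to 95122005. It had 604.9, 729.7 and 647.6 CPM in vehicle livers and 291.9, 302.7 and 232.7 CPM in untreated livers, a change of 1.26 ± 0.20 (adjusted p = 0.0157). Every vehicle library held about the same level, well above every untreated one. Retreg1, a receptor for the autophagy of the endoplasmic reticulum, had 219.0, 273.7 and 224.9 CPM in vehicle livers and 102.5, 93.4 and 87.6 CPM in untreated livers. It lies on chromosome 15 from 25843266 to 25973773 and changed by 1.34 ± 0.24 (adjusted p = 0.0229), again without overlap.

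Herpud1 was the only gene called among 21 tested genes of a list for the response to unfolded protein and to amino acid shortage, whose median change was -0.04, the same as over all genes to 2 decimals. Its chaperone members showed no call. Hspa5, the main chaperone of the endoplasmic reticulum, had 714.6, 639.3 and 620.0 CPM in vehicle livers and 594.9, 580.9 and 580.2 CPM in untreated livers (log2 change 0.17 ± 0.22, adjusted p = 0.692). Dnajb9, one of its partner proteins, had 108.7, 106.3 and 67.7 CPM in vehicle livers and 59.0, 60.8 and 35.9 CPM in untreated livers. Its vehicle libraries all lay above its untreated ones, and its change of 0.86 ± 0.29 was not called (adjusted p = 0.227). Xbp1, a transcription factor of this response, had a log2 change of -0.04 ± 0.23 (adjusted p = 0.939). The promoter of Herpud1 is shown because a site of this response is known in the human gene's promoter, on the plus strand at chr8:94386179-94386478 of GRCm38.p6. Capitals mark the second type of endoplasmic reticulum stress response element.
Herpud1: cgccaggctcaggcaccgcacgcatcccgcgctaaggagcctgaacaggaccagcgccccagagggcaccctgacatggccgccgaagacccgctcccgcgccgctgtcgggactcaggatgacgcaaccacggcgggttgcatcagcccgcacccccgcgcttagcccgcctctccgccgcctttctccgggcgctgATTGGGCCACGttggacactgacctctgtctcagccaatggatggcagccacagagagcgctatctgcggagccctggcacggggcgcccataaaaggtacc
This element was found once, starting at base 199 of the window, and 0.0365% of the 32851 promoter windows held it on either strand. The first type of that element was in 0.119% of the windows and had no match in this one. The second type was searched after the first had given no match.

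Cish, a Socs-family inhibitor that Stat5 induces in response to growth hormone and cytokines, lies on chromosome 9 from 107173225 to 107179983. It had 30.9, 18 and 29.5 CPM in vehicle livers and 9.07, 8.46 and 5.75 CPM in untreated livers, a change of 1.75 ± 0.30 (adjusted p = 0.022). Vehicle replicate 2 was the lowest of its group and still above every untreated library. Its promoter is shown because Stat sites are known in it, on the plus strand at chr9:107296409-107296708 of GRCm38.p6. Capitals mark TTCNNNGAA, the Stat consensus.
Cish: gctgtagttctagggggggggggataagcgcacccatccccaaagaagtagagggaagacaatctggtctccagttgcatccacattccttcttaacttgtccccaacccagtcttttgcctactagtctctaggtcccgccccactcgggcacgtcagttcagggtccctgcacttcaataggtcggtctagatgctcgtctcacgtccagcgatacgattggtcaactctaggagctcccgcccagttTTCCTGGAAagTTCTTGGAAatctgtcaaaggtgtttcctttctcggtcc
The window held 2 matches, which did not overlap, starting at bases 251 and 262. At least 1 match was in 8.30% of all promoter windows, and at least 2 in 0.457%. One of the windows of Tgm1, a gene that fell, also held 2.

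Cish was the only gene called among 18 tested genes of insulin, Igf and growth hormone signalling, whose median change was -0.05. Socs2, another Stat5-induced inhibitor, had 28.3, 49.2 and 9.49 CPM in vehicle livers and 35.3, 21 and 25 CPM in untreated livers. The vehicle libraries of Socs2 enclosed the untreated ones (log2 change 0.10 ± 0.38, adjusted p = 0.908). Igf1, the growth factor that growth hormone raises in liver, had a log2 change of 0.20 ± 0.17 (adjusted p = 0.541).

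Mknk2, a kinase of the translation factor eIF4E on chromosome 10 from 80501161 to 80513946, had 128.6, 135.3 and 142.5 CPM in vehicle livers and 76.3, 82.5 and 79.9 CPM in untreated livers. Its change of 0.77 ± 0.14 (adjusted p = 0.0229) was the smallest of the rises, and both groups were tight. Shld2, a subunit of the shieldin complex that protects DNA ends, had 52.3, 38.8 and 49.3 CPM in vehicle livers and 23.0, 25.3 and 27.7 CPM in untreated livers. It changed by 0.89 ± 0.17 (adjusted p = 0.0436), and only vehicle replicate 2 came near the untreated level. Fam107b had 115.0, 123.3 and 146.0 CPM in vehicle livers and 58.6, 57.6 and 73.8 CPM in untreated livers, a change of 1.02 ± 0.18 (adjusted p = 0.0207).

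**Figure D2:**
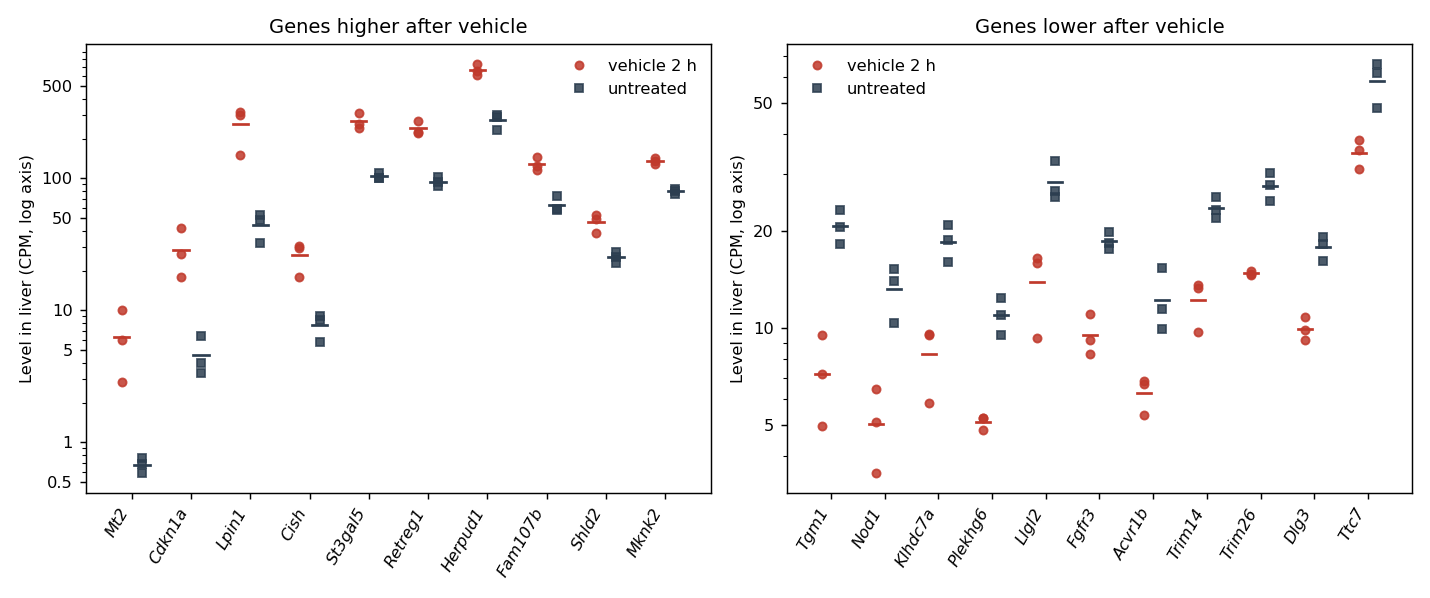
Level in liver (vertical axes, CPM on a log axis) of the 10 genes higher and the 11 genes lower after vehicle, with 1 point per library, 3 for vehicle at 2 h and 3 for untreated livers, and a line at each group mean. In no gene do the points of the groups overlap, and Mt2 and Cdkn1a show the widest spread among the rises in vehicle livers.

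The falls ranged from -0.75 for Ttc7 to -1.52 for Tgm1. In a fit of only the 6 libraries compared, 6 genes were called higher and none lower, so that none of the 11 falls was called there. Nod1, an intracellular sensor of bacterial peptidoglycan on chromosome 6 from 54900934 to 54949597, had 6.46, 3.55 and 5.1 CPM in vehicle livers and 13.9, 10.4 and 15.3 CPM in untreated livers. Its change was -1.39 ± 0.24 (adjusted p = 0.0207). Trim14 and Trim26, TRIM proteins that act in antiviral signalling, fell as well. Trim14 had 13.6, 9.72 and 13.3 CPM in vehicle livers and 25.5, 21.9 and 23.2 CPM in untreated livers (log2 change -0.95 ± 0.16, adjusted p = 0.0191). Trim26 had 15, 14.6 and 14.7 CPM in vehicle livers and 30.3, 24.8 and 27.7 CPM in untreated livers (log2 change -0.90 ± 0.17, adjusted p = 0.0322). Nod1, Trim14 and Trim26 did not overlap between the groups.

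Among the other falls, Fgfr3, a receptor for fibroblast growth factors on chromosome 5 from 33879018 to 33894412, had 11.1, 8.29 and 9.14 CPM in vehicle livers and 17.6, 18.4 and 19.8 CPM in untreated livers, a change of -0.97 ± 0.16 (adjusted p = 0.0157). Acvr1b, an activin receptor, had 6.82, 5.36 and 6.7 CPM in vehicle livers and 11.4, 9.92 and 15.4 CPM in untreated livers (log2 change -0.96 ± 0.19, adjusted p = 0.0436). Both receptors were lower in every vehicle library than in any untreated one. Llgl2, a protein of cell polarity, had 16.5, 9.29 and 15.8 CPM in vehicle livers and 25.5, 26.7 and 32.9 CPM in untreated livers (log2 change -1.03 ± 0.20, adjusted p = 0.0387). Dlg3, a scaffold of the membrane-associated guanylate kinase family, had 10.8, 9.85 and 9.14 CPM in vehicle livers and 19.1, 16.2 and 18.2 CPM in untreated livers (log2 change -0.84 ± 0.17). Vehicle replicate 2 held the lowest level of Llgl2, Acvr1b, Fgfr3, Nod1, Trim14, Trim26, Klhdc7a and Ttc7. Plekhg6 had 4.81, 5.24 and 5.24 CPM in vehicle livers and 11, 9.51 and 12.4 CPM in untreated livers (log2 change -1.10 ± 0.21, adjusted p = 0.0322).

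Tgm1, a transglutaminase that cross-links proteins, showed the largest fall. It lies on chromosome 14 from 55937466 to 55951383 and had 9.47, 7.17 and 4.96 CPM in vehicle livers and 23.2, 18.2 and 20.6 CPM in untreated livers (log2 change -1.52 ± 0.28, adjusted p = 0.0322). Ttc7, a scaffold of a phosphatidylinositol 4-kinase complex, had 35.5, 31.0 and 38.2 CPM in vehicle livers and 61.8, 48.1 and 65.7 CPM in untreated livers (log2 change -0.75 ± 0.14, adjusted p = 0.0322). The smallest of the falls was that of Ttc7. Klhdc7a had 9.54, 5.86 and 9.49 CPM in vehicle livers and 20.8, 16 and 18.7 CPM in untreated livers, a change of -1.16 ± 0.19 (adjusted p = 0.0172). All 3 genes lay apart between the groups.

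The 23 pathway lists, with 404 tested genes, held 5 of the called genes (1.24%, against 0.155% of all genes tested), and the other 16 belonged to no list. The lists were chosen with earlier results of these data known, so nothing is read from that share. Calls fell in 6 lists, and 17 lists had none. Besides those given above, Mt2 was the 1 gene called of 11 for metallothioneins and metal handling (median change 0.22) and Cdkn1a the 1 of 17 for cell cycle and growth control (median 0.13). The median of the cell cycle list ran from -0.09 without untreated replicate 3 to 0.40 without vehicle replicate 1. Cdkn1a was not called without vehicle replicate 3, untreated replicate 1 or untreated replicate 3, and Mt2 was lost in the same fits and without vehicle replicate 2. The lists without a call covered core clock genes, clock output factors, immediate early genes, gluconeogenesis, glycolysis, cholesterol synthesis, fasting, bile acids, xenobiotic metabolism and the acute phase. Lists of NF-kB targets, interferon-induced genes, heat shock, antioxidant, hypoxia, ribosome biogenesis and respiratory chain genes had none either. The immediate early genes, which respond within minutes to growth factors and stress, had a median change of 0.24 over 23 tested members. Fos was at 0.72, 0.37 and 0.42 CPM in vehicle livers and 1.89, 3.5 and 0.0982 CPM in untreated livers, and Egr1 at 4.88, 8.35 and 5.79 CPM in vehicle livers and 6.97, 30.6 and 3.34 CPM in untreated livers. Both overlapped between the groups and neither was called (adjusted p = 0.299 for Fos and 0.319 for Egr1). Saa1, an acute phase protein, was 22.9, 50.4 and 20.4 CPM in vehicle livers and 25.4, 15.9 and 14.3 CPM in untreated livers (log2 change 0.75 ± 0.41, adjusted p = 0.351).

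**Figure D3:**
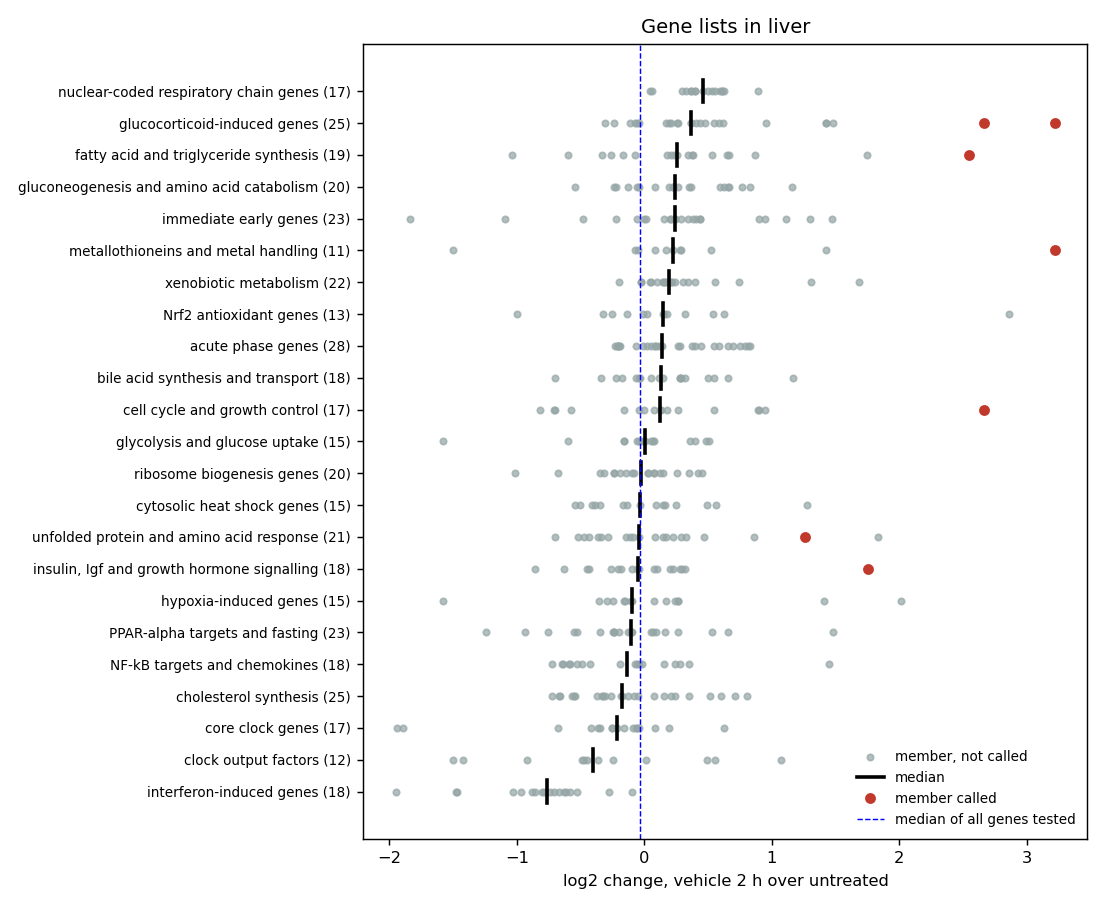
Log2 change of vehicle at 2 h over untreated livers (horizontal axis) for the tested members of 23 gene lists (rows, with the number of members tested), with called members in red, the list median as a black bar and the median of all genes tested as a dashed line. A red point stands in 6 lists, and the list medians run from -0.76 for interferon-induced genes to 0.46 for respiratory chain genes.

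The list medians that lay farthest from that of all genes, at the 2 ends of the plot of the lists, belonged to lists without a call. All 18 tested interferon-induced genes had a change below 0, with a median of -0.76. Untreated replicate 1 carried much of this difference: Igtp, an interferon-induced GTPase, was 47.4, 57.9 and 34.8 CPM in vehicle livers and 261.9, 64.9 and 64.3 CPM in untreated livers. Untreated replicate 1 stood far above the other 5 libraries in Igtp. Without untreated replicate 1 the list's median was -0.15, with 12 members below 0 and 6 above. The Kupffer cell and macrophage markers were also highest in that library, at 513.4 CPM, and their part in the difference was not tested.

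All 17 tested nuclear-coded genes of the mitochondrial respiratory chain had a change above 0, with a median of 0.46. Sdhb, a subunit of succinate dehydrogenase, was 310.0, 347.4 and 277.2 CPM in vehicle livers and 202.7, 229.4 and 188.3 CPM in untreated livers (log2 change 0.59 ± 0.17, adjusted p = 0.194). Cox5a, a subunit of cytochrome c oxidase, was 174.3, 179.8 and 174.0 CPM in vehicle livers and 118.9, 135.0 and 92.5 CPM in untreated livers (log2 change 0.61 ± 0.19, adjusted p = 0.214). In both genes the groups lay apart, and neither was called. The median of the list stayed between 0.34 and 0.53 when 1 library was left out. The share of reads from the mitochondrial genome itself was 2.41% to 2.83% in vehicle livers and 2.14% to 3.27% in untreated livers.

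In metabolism, Got1, an enzyme that feeds amino acid carbon into glucose synthesis, was 417.0, 778.8 and 365.6 CPM in vehicle livers and 190.8, 246.2 and 262.4 CPM in untreated livers. The groups of Got1 did not overlap, and its change of 1.16 ± 0.27 was not called (adjusted p = 0.123). Pck1, the rate-limiting enzyme of gluconeogenesis, overlapped between the groups, at 1456, 1448 and 1808 CPM in vehicle livers and 906.6, 1966 and 786.1 CPM in untreated livers. Cyp7a1, the rate-limiting enzyme of bile acid synthesis, was 213.3, 362.9 and 183.8 CPM in vehicle livers and 120.1, 66.7 and 152.6 CPM in untreated livers (log2 change 1.16 ± 0.40, adjusted p = 0.236). Its groups lay apart as well.

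The time of day of the harvests is not given, and levels of some clock genes follow. None of 17 core clock genes was called at 2 h, and 14 of the 17 had a change below 0 (median -0.22), as did 7260 of all 13592 genes tested. Without untreated replicate 3, 12 of the 17 were below 0 and the median was -0.12. Bhlhe40, a repressor of the clock, had the smallest p of the list with a change above 0, at 91.6, 106.3 and 118.1 CPM in vehicle livers and 89.4, 46.3 and 69.6 CPM in untreated livers (log2 change 0.62 ± 0.20, adjusted p = 0.225). Arntl, which encodes the activator Bmal1, was 4.66, 6.67 and 5.65 CPM in vehicle livers and 3.3, 7.0 and 8.74 CPM in untreated livers. Nr1d1, which represses Arntl, was 101.8, 63.0 and 58.6 CPM in vehicle livers and 78.9, 58.7 and 73.4 CPM in untreated livers, so that both of these genes overlapped. Per3, a period gene, was 0.50, 0.87 and 0.21 CPM in vehicle livers and 2.25, 0.88 and 3.04 CPM in untreated livers (log2 change -1.94 ± 0.64, adjusted p = 0.225). Dbp, a strongly rhythmic output factor, was 15, 20.2 and 7.54 CPM in vehicle livers and 75.6, 8.35 and 30.5 CPM in untreated livers (log2 change -1.42 ± 0.54, adjusted p = 0.25). The untreated livers thus differed among themselves in Dbp by more than the vehicle livers did, with untreated replicate 2 as low as the vehicle livers.

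Between the vehicle times, clock genes were among those called. In vehicle livers at 6 h against vehicle livers at 2 h, 211 of 13592 genes were called, or 1.55%, with 141 higher (1.04%) and 70 lower (0.515%) at 6 h. Without 1 library of the 2 h group the count was 132 (replicate 1), 101 (replicate 2) or 85 (replicate 3), and without 1 library of the 6 h group it was 76 (replicate 1), 133 (replicate 2) or 149 (replicate 3). Of the 17 core clock genes 6 were called, Per3, Ciart and Cry2 being higher at 6 h and Arntl, Npas2 and Nr1d1 lower. Per3 was 5.06, 7.34 and 10.3 CPM at 6 h and 0.502, 0.873 and 0.209 CPM at 2 h, without overlap, a change of 3.8 ± 0.61 (edgeR adjusted p = 0.00318). Arntl was 0.22, 0.638 and 1.35 CPM at 6 h and 4.66, 6.67 and 5.65 CPM at 2 h, a change of -2.92 ± 0.53 (adjusted p = 0.00739). Npas2 had no read in any of the 3 libraries at 6 h and 12, 13 and 8 reads in the libraries at 2 h. Of 12 clock output factors 5 were called, Dbp, Tef, Wee1 and Usp2 higher and Nfil3 lower at 6 h. The vehicle times thus differ in clock gene levels, and time of day and time since the injection cannot be told apart.

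Most of the 21 genes were no longer at their 2 h level at 6 h. In the test of vehicle at 6 h against vehicle at 2 h, 7 of the 10 rises were lower at 6 h and 8 of the 11 falls were higher. The libraries at 2 h that define these genes are also used in this test, so a return is favoured by the choice of the genes. Cdkn1a was 1.70, 1.15 and 0.65 CPM at 6 h, below its untreated range, and changed by -4.62 ± 0.47 between the times (adjusted p = 0.000188). Mt2 was 0.38, 1.09 and 0.22 CPM at 6 h, around its untreated level (log2 change between the times -3.52 ± 0.54, adjusted p = 0.00212). Lpin1 was 106.6, 92.5 and 60.2 CPM at 6 h, between its 2 h and its untreated levels (-1.57 ± 0.29, adjusted p = 0.00802). Tgm1 was 31.7, 43.3 and 36.5 CPM at 6 h, above its untreated range (2.37 ± 0.29, adjusted p = 0.000363). Ttc7 likewise lay above its untreated range at 6 h, at 83.0, 69.4 and 73.0 CPM.

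The rises not called as different between the times were St3gal5, Cish and Mknk2. St3gal5 was 299.6, 290.9 and 203.4 CPM at 6 h, and its difference from 2 h was -0.04 ± 0.18. Cish was 35.3, 27.3 and 24.7 CPM at 6 h (0.16 ± 0.29), and Mknk2 was 118.2, 136.5 and 137.7 CPM (-0.05 ± 0.14). These were also the 3 of the 21 genes called in vehicle livers at 6 h against untreated livers, a comparison that shares the untreated libraries and called 91 genes in all (0.67%), 49 of them higher (0.361%) and 42 lower (0.309%). The 3 falls without a called difference between the times were Nod1, Trim26 and Dlg3, each with a mean at 6 h between those of the vehicle livers at 2 h and the untreated livers. Nod1 was 9.95, 7.34 and 11.6 CPM at 6 h (0.94 ± 0.24, adjusted p = 0.0545).

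**Figure D4:**
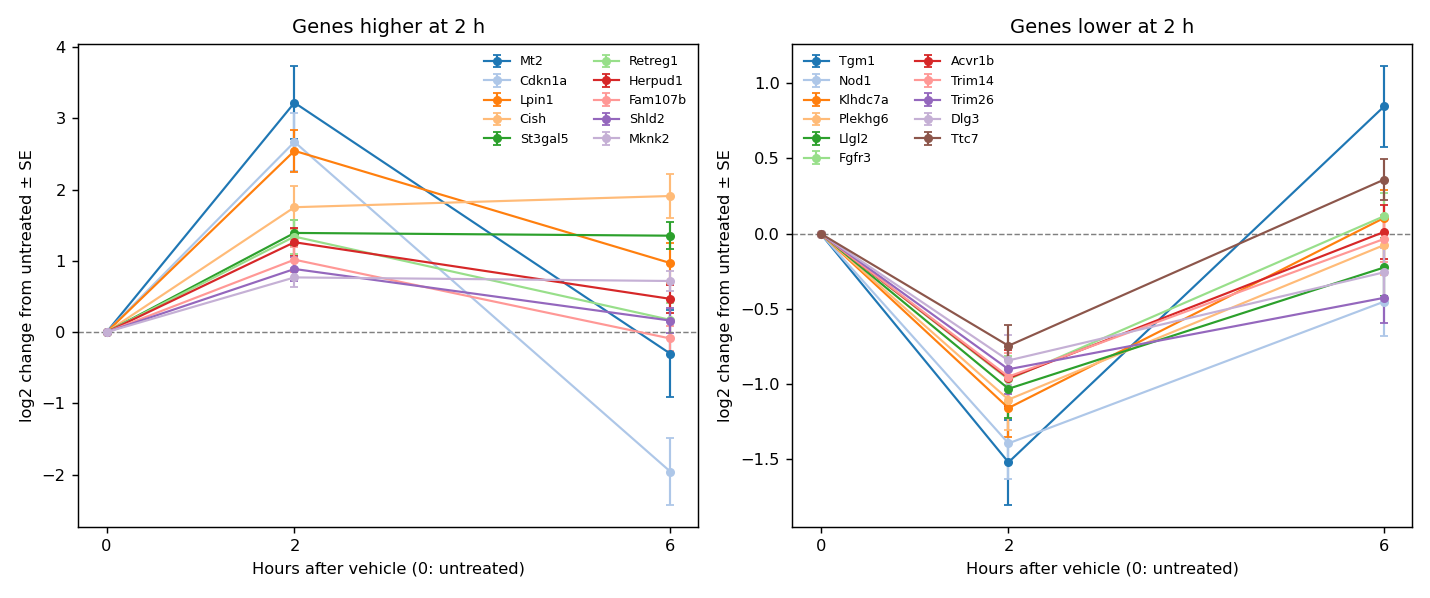
Log2 change from untreated livers (vertical axes, mean and SE of the fit) at 0, 2 and 6 h after vehicle (horizontal axes) for the 10 genes higher and the 11 genes lower at 2 h, where the value at 0 h is 0 by definition. St3gal5, Cish and Mknk2 stay near their 2 h change at 6 h, Cdkn1a ends below 0, and Tgm1 ends above it.

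Livers of mice injected with 1 mg/kg of Egf and frozen at 2 h give the levels of these genes in 4 further injected mice. Cdkn1a was 22.5, 27.3, 35.6 and 29.4 CPM in Egf livers, within its vehicle range. Retreg1 was 249.8, 235.2, 217.7 and 243.8 CPM in Egf livers and St3gal5 196.6, 256.6, 240.0 and 259.4 CPM, both far above their untreated ranges. Lpin1 was 64.9, 33.2, 63.6 and 51.0 CPM in Egf livers, near its untreated libraries, and Herpud1 was 331.2, 353.9, 366.8 and 365.7 CPM, between both groups. Tgm1 was 24.7, 29.6, 42.2 and 36.9 CPM in Egf livers, above every untreated library. The high Lpin1 and low Tgm1 of the vehicle livers at 2 h were thus not seen in the Egf livers at the same time. Every fall other than Tgm1 had a lower mean in Egf livers than in vehicle livers at 2 h. Mean levels in Egf, vehicle and untreated livers were 4.75, 5.04 and 13.2 CPM for Nod1 and 4.88, 9.50 and 18.6 CPM for Fgfr3. Among the rises, Mt2, Cish, Fam107b, Shld2 and Mknk2 had higher means in Egf livers than in vehicle livers. No test was run on these levels.

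Whether the liver response differed from that of the other organs was tested in a fit of the 24 vehicle and untreated libraries of liver, heart, lung and kidney, as the liver change minus the mean change of the other 3. Of 17870 genes, 8 were called (0.0448%), with 5 above 0 (0.028%) and 3 below (0.0168%). The 5 genes above 0 were Lpin1, Cish, Shld2, St3gal5 and Retreg1, all among the liver rises. With the replicate number as a block, only Lpin1 and Cish of the 8 were called. The difference was 2.21 ± 0.33 (SE) for Lpin1 and 1.51 ± 0.23 for Cish (edgeR adjusted p = 0.0182 for each), and 1.36 ± 0.23 for St3gal5, 1.24 ± 0.22 for Shld2 and 1.04 ± 0.18 for Retreg1 (adjusted p = 0.0402 for each). The change of Lpin1 was 2.53 ± 0.30 in liver, 0.79 ± 0.29 in kidney, 0.22 ± 0.28 in lung and -0.03 ± 0.28 in heart. The change of Cish was 1.75 ± 0.20 in liver, against 0.30 ± 0.19 in kidney, 0.10 ± 0.19 in lung and 0.31 ± 0.19 in heart. Shld2 changed by 0.88 ± 0.19 in liver, -0.41 ± 0.19 in kidney, -0.13 ± 0.20 in lung and -0.53 ± 0.20 in heart. Its difference is thus larger than its liver change, and it was not called in any of the other 3 organs. The remaining rises and all 11 falls of the liver had no called difference from the other organs. The same fit called 129 genes in liver (0.722%; 0.145% higher, 0.576% lower) and 572 in heart (3.2%; 0.168% higher, 3.03% lower). It called 4 in kidney (0.0224%; 0.0168% higher, 0.0056% lower) and 2 in lung (0.0112%; both higher, again 0.0112%). Herpud1 was also called in kidney, at 1.00 ± 0.14 (adjusted p = 0.0114), and Trim14 and Dlg3 were also called in heart, at -1.35 ± 0.27 and -0.80 ± 0.18 (adjusted p = 0.00765 and 0.0136). Hepatocyte markers summed to 74.6 to 255.3 CPM in vehicle hearts and 1302 to 16700 CPM in untreated hearts, and their part in the heart calls was not tested. Levels of CPM in this fit are on a scale of their own.

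**Figure D5:**
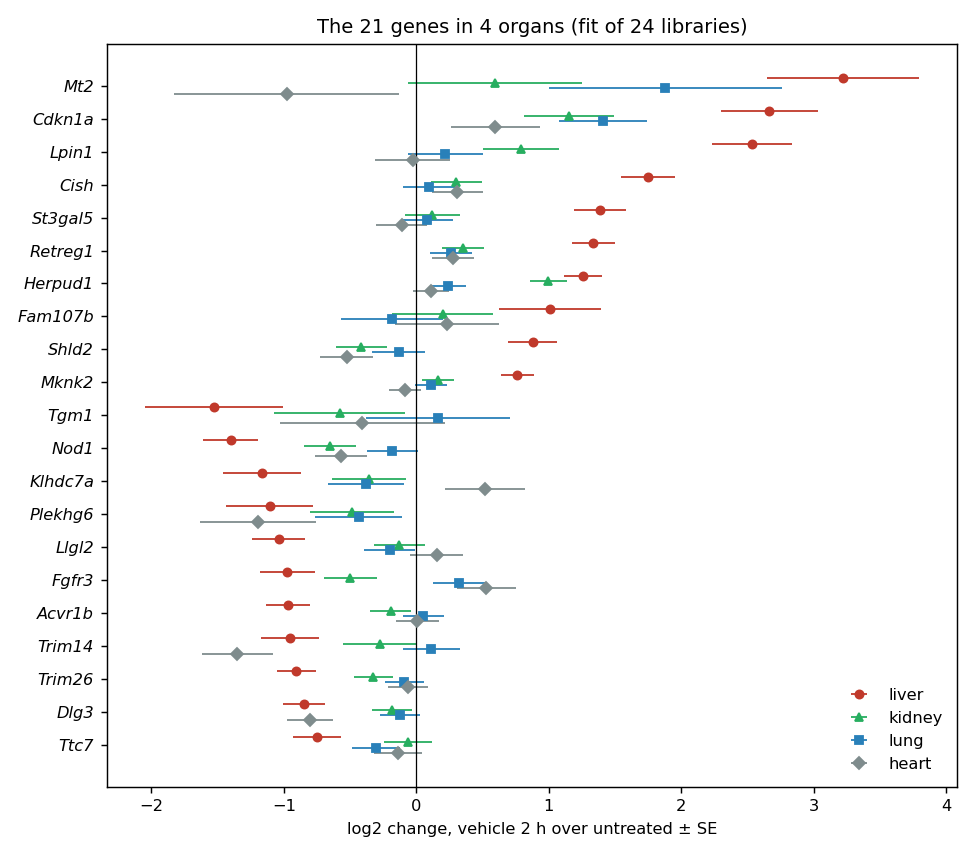
Log2 change of vehicle at 2 h over untreated mice (horizontal axis, with SE) for the 21 genes (rows) in liver, kidney, lung and heart, from the fit of 24 libraries. In every gene that rose in liver, chosen by that rise, the liver point lies to the right of those of the other 3 organs. Herpud1 in kidney lies next to its liver point. Among these rises, the difference from the mean of the other organs was called for Lpin1, Cish, St3gal5, Retreg1 and Shld2.

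The 3 genes below 0 were Fkbp5, Lpar1 and Kctd1. Fkbp5 rose in lung by 2.49 ± 0.22 and in heart by 1.2 ± 0.22 (adjusted p = 8.69e-06 and 0.00441), and its change was 1.19 ± 0.21 in kidney (adjusted p = 0.0694) and 0.25 ± 0.21 in liver (adjusted p = 0.569). Its difference, liver minus the mean of the others, was -1.37 ± 0.25 (adjusted p = 0.0428), so that the change of Fkbp5 was smaller in liver than in the mean of the other organs. Lpar1, a receptor for lysophosphatidic acid, was at low levels in the liver fit, 0.431, 0.374 and 0.489 CPM in vehicle livers and 1.42, 1.52 and 1.03 CPM in untreated livers. Its vehicle and untreated libraries lay apart, and its difference from the other organs was -1.54 ± 0.27 (edgeR adjusted p = 0.0402). Kctd1 rested on few reads in liver, 1, 1 and 0 in vehicle livers and 6, 13 and 13 in untreated livers. The ratio of its summed reads, scaled by library totals, was 0.0746, with an exact 95% interval of 0.00866 to 0.292 that covers counting error only. It lies outside the rule for naming genes and was named after its values were seen, with a fitted difference of -3.33 ± 0.57.

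The count of 8 moved with single libraries of all organs. It was 0 without liver vehicle replicate 3 or liver untreated replicate 3, 15 without heart vehicle replicate 1 and 61 without heart untreated replicate 2. It was 9 without heart vehicle replicate 2, 8 without lung untreated replicate 2, 7 without liver untreated replicate 2, and between 1 and 5 without any 1 of the other libraries. None of the 8 genes was called in all 24 fits that left out 1 library, Cish being called in 21 and Lpin1 in 20. Both were lost only when a liver library was left out. Cish was lost without liver vehicle replicate 1 or 3 or liver untreated replicate 3. Lpin1 was lost without liver vehicle replicate 1 or 3 or liver untreated replicate 1 or 3. The hepatocyte markers given for heart above summed to 670.1 to 1213 CPM in vehicle lungs and 675.1 to 703.5 CPM in untreated lungs, and to 1194 to 1790 CPM in vehicle kidneys and 1070 to 2876 CPM in untreated kidneys. The part of these hepatocyte transcripts in the organ differences was not tested. Without the heart libraries, 6 genes were called, of which 5 were among the 8. The labels give 3 untreated mice in all, the number of untreated libraries of each organ, so by that count untreated libraries of different organs share mice. Which libraries share a mouse is not stated in words, and whether the vehicle libraries do so is not known. The main fit treats the 24 libraries as independent. With the library number, which recurs in the organs, as a block, 11 genes were called, all 8 among them.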

How the data were processed

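Raw read counts per gene were taken from the table that the authors deposited, which holds 56748 genes. Per the submitters' processing notes, the authors used HISAT2 2.0.5, featureCounts 1.5.0-p3 and build mm39. The trimming and the gene annotation version are steps not given in the sources used here. Per the labels' protocols the libraries did not keep strand, so reads of a gene and of an overlapping or antisense neighbour are not separable. The 17 liver libraries held 14826465 to 19840994 counted reads.

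Counts were fitted with edgeR 4.0.16 in R 4.3.3 (filterByExpr, TMM, robust quasi-likelihood F tests, Benjamini-Hochberg). An adjusted p under 0.05 was a call, and the SE is the one implied by the F statistic. CPM are TMM-scaled, except marker sums, which use library totals. Between replicate livers the common biological coefficient of variation came to 0.224, and p-values measure the spread between these mice. Named genes were called, had a mean of at least 1 CPM in a group, did not overlap and had an informative symbol, with at most 15 in each direction, or 10 by smallest p for the times and organs. For organs the mean had to be met in every organ. The samples, lists and comparisons were chosen with earlier results of these data known. DESeq2 1.42.0, limma 3.58.1 (voom), RLE scaling, no filter, blocks, other sets of libraries and leaving out single libraries were alternatives. The procedure was tested on simulated data.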

Additional observations from a re-analysis of the deposited data

Results flagged for a closer look

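The change after vehicle differed between liver and the mean of heart, lung and kidney in 8 genes, by the test of the difference itself. On the log2 scale the difference was 2.21 for Lpin1, 1.51 for Cish, 1.36 for St3gal5, 1.24 for Shld2 and 1.04 for Retreg1. It was -3.33 for Kctd1, -1.54 for Lpar1 and -1.37 for Fkbp5.

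Between vehicle livers at 6 h and at 2 h, 211 genes differed. The genes with the smallest p that were higher at 6 h were Srm (log2 difference 1.58), Slc5a6 (2.14), Wee1 (2.53), Tgm1 (2.37), Ttc7 (1.11), Tlr12 (1.75), Tef (1.81), Marveld1 (1.30), Miga2 (1.18) and Ccnd1 (1.99). Those lower at 6 h were Cdkn1a (-4.62), Clpx (-1.67), Coq8a (-1.84), Mpzl1 (-1.63), Pnkd (-0.97), Mt2 (-3.52), Ddc (-1.28), Denn2b (-1.73), Trp53inp1 (-1.60) and Fam107b (-1.10). Each of these 20 genes was called in every alternative run.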

How the results depend on the processing

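For vehicle against untreated livers at 2 h (21 genes, 10 higher and 11 lower), 37 genes were called with no filter on low counts (13 higher, 24 lower), 151 with DESeq2 (55 and 96) and 541 with limma voom (246 and 295). All 21 genes were among each of these sets. The fit of the 6 libraries alone called 6 (6 and 0), of which 5 were among the 21, and the fit of 24 libraries of 4 organs, added after seeing the data, called 129 (26 and 103), of which 16 were among the 21. Leaving out 1 library gave 1 to 18 genes, with 1 to 6 higher and 0 to 12 lower.

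For vehicle at 6 h against 2 h (211 genes), DESeq2 called 481 (340 higher, 141 lower) and limma voom 1074 (672 and 402). Leaving out 1 library gave 76 to 149 genes, with 51 to 110 higher and 25 to 48 lower. For the difference between liver and the other organs (8 genes, 5 above 0 and 3 below), RLE scaling called 6, with 1 below 0. DESeq2 called 87 (55 and 32), limma voom 119 (79 and 40), the fit of all 68 libraries 37 (11 and 26), and the fit without heart, added after seeing the data, 6 (5 and 1). Leaving out 1 library gave 0 to 61 genes, with 0 to 43 above 0 and 0 to 18 below.

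With the replicate number as a block, 111 genes were called at 2 h (47 higher, 64 lower), 341 between the times (235 and 106) and 2 between the organs (2 and 0). The deviations of same-numbered vehicle and untreated livers correlated at 0.00136, 0.0714 and 0.0339. Those of differently numbered livers correlated at -0.107 to 0.088. Whether same-numbered samples share more than a number cannot be told from these values. With the library number as a block, 11 genes differed between the organs.

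None of the called genes named for the 3 comparisons changed direction under any alternative run. Leaving out 1 library changed the sign of the median change in 9 of 23 pathway lists, all with medians of at most 0.17 in size. For the cell cycle list (0.13) it was -0.09 without untreated replicate 3, and for insulin, Igf and growth hormone signalling (-0.05) it was 0.08 without vehicle replicate 3. The cause of the differences between settings was not tested, except that leaving out libraries also leaves fewer samples. DESeq2 gave no adjusted p for 1856 of the genes tested in liver.

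With 3 mice in a group and totals of 14826465 to 19165882 reads, an uncalled gene is not shown to be unchanged.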
